A study of Mus musculus with 72 samples.

Results

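Transcripts of 7 glucocorticoid-responsive genes were followed in mouse liver over the day, with and without a working hepatocyte clock and with and without gut microbes. The genes were Nr3c1, Hsd11b1, Tsc22d3, Fkbp5, Sgk1, Dusp1 and Zbtb16. They were taken from the count table by gene symbol, and they make up 7 of the 55573 genes listed. Livers came from male mice, C57BL/6 by their labels and C57BL/6J in the methods of the study, 18 mice in each of 4 groups, killed in sets of 3 at zeitgeber time (ZT, hours from lights on) 2, 6, 10, 14, 18 and 22. WT mice carried Bmal1 fl/fl without Cre, and LKO mice carried Bmal1 fl/fl with Albumin-Cre, so all 72 mice had floxed alleles of Bmal1, the core clock activator also called Arntl. Albumin-Cre is active in hepatocytes, and other liver cells of LKO mice keep Bmal1. Mice of each genotype were either specific pathogen free (SPF), with a microbiota, or germ free (GF), kept without microbes in flexible film isolators. They were 10 to 14 weeks old when single housing began and ate autoclaved chow freely under equal phases of light and dark. Corticosterone in blood is not part of the count table, and the values below are RNA levels in pieces of whole liver, in which fewer cells of a type and less RNA per cell cannot be told apart.

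Glucocorticoids are steroid hormones of the adrenal gland whose blood level rises before the active phase, which in mice is the night. Inside a cell they bind the glucocorticoid receptor, encoded by Nr3c1, which leaves a chaperone complex in the cytoplasm, enters the nucleus and binds glucocorticoid response elements, inverted repeats of a 6-base site. Liver is a main target, where the hormone drives gluconeogenesis and amino acid breakdown, and its daily rise is a timing signal that can reach a liver whose own clock is disabled. The enzyme encoded by Hsd11b1 makes active hormone from its inert keto form inside the hepatocyte, ahead of the receptor. The other 5 genes are known targets of the receptor. Tsc22d3 encodes GILZ, an anti-inflammatory leucine zipper protein, and Dusp1 a phosphatase that switches off MAP kinases. Fkbp5 encodes a co-chaperone that lowers the hormone affinity of the receptor and so closes a feedback loop. Sgk1 encodes a kinase of ion transport and insulin-like signalling, and Zbtb16 a zinc finger transcriptional repressor, PLZF.

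RefSeq promoter windows of GRCm38.p6, each 250 bases before to 50 bases after a transcription start, were found for 5 of the 7 genes and searched on both strands for 3 motifs. The motifs were the full response element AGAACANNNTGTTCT, its 6-base site TGTTCT and the E-box CACGTG, the site of BMAL1 with its partners. The full element was present in 3 of 32851 windows (0.00913%), 1 of which belonged to Sgk1. The 6-base site was present in 19% of windows and the E-box in 7.15%. The 250 bases before the Sgk1 start at 21993890 (chr10:21993640-21993889, plus strand) and before the Fkbp5 start (chr17:28486150-28486399, minus strand) are shown because Sgk1 was the target called for genotype in SPF and in GF mice, and Fkbp5 the gene of the 7 whose rhythm was called in every group. Sgk1 has further starts with windows of their own, and the start at 21993890 is the one whose window held the full element. The windows of the Sgk1 starts at 21978672, 21986104 and 21994666 held none of the 3 motifs. Those at 21882184 and 21992223 held the 6-base site alone. The shares above are per window and not per gene. Capitals mark the matches to these motifs.

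Sgk1: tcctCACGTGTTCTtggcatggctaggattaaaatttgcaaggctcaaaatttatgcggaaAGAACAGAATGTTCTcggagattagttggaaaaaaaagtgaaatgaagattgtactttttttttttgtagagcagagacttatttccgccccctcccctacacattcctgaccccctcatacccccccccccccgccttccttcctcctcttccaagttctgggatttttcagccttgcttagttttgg

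Fkbp5: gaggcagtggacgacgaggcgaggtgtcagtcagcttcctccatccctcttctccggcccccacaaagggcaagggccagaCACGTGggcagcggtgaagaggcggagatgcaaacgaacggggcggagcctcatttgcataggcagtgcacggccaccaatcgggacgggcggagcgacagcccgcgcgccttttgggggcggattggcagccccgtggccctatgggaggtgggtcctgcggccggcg

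In the Sgk1 sequence the full element began at position -189, counted in bases from the start, and an E-box began at -246, overlapping a 6-base site. The Fkbp5 sequence held an E-box that began at -169, and neither form of the response element. Dusp1 had an E-box at -126. The window of the Tsc22d3 start at 140600522 held a 6-base site at -185. The other Tsc22d3 windows and that of Hsd11b1 held no match. These are matches of letters in a short window and say nothing about binding.

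Libraries held 17369927 to 22076113 counts (median 19106725), and all 7 genes passed the filter on low counts in every comparison. Levels are given as CPM, the count of a gene relative to the TMM-scaled total of its library. The Bmal1 transcript was used to check labels, although the deposited total covers all exons: it ranged from 0.331 to 40.8 CPM over the day in GF WT mice and from 7.01 to 13.4 CPM in GF LKO mice. The libraries labelled SPF LKO ZT14 replicate 2 and SPF LKO ZT18 replicate 1 went against their genotype, with 0.22 and 1.81 CPM of Npas2, a clock gene that stood at 24.2 to 36.6 CPM in the other 4 LKO libraries of those times. The library labelled SPF WT ZT14 replicate 3 had 2.12 CPM of Arntl against 15.9 and 19.4 CPM, and GF WT ZT6 replicate 3, likewise by its label, had 8.19 CPM against 1.62 and 2.43 CPM. All 4 were kept, and results that rest on them are given with and without them.

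Compared per kilobase of exon in SPF WT mice, Hsd11b1 was the most abundant of the 7 at 163 ± 27.6 CPM per kb (SD, n = 18), followed by Tsc22d3 at 50.9 ± 27.4 and Nr3c1 at 15 ± 1.4. Dusp1 (13.1 ± 8.98), Fkbp5 (5.84 ± 3.58), Sgk1 (4.6 ± 1.35) and Zbtb16 (4.17 ± 3.36) came next. The levels of Nr3c1 and Dusp1, and of Fkbp5, Sgk1 and Zbtb16, differed by less than their spread over mice. The enzyme, the receptor and the targets divided their variance in different ways. For Hsd11b1, 73.1% of the variance of log2 CPM lay between the 4 groups and 0.714% between the 6 times, while for Fkbp5 49.7% lay between times and 21.4% between groups. Most of the variance of Nr3c1, Tsc22d3, Dusp1 and Zbtb16 (56.6% to 61.6%) lay among the 3 mice of the same group and time, where the SD on the log2 scale ran from 0.178 for Nr3c1 to 1.02 for Zbtb16.

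**Figure D1:**
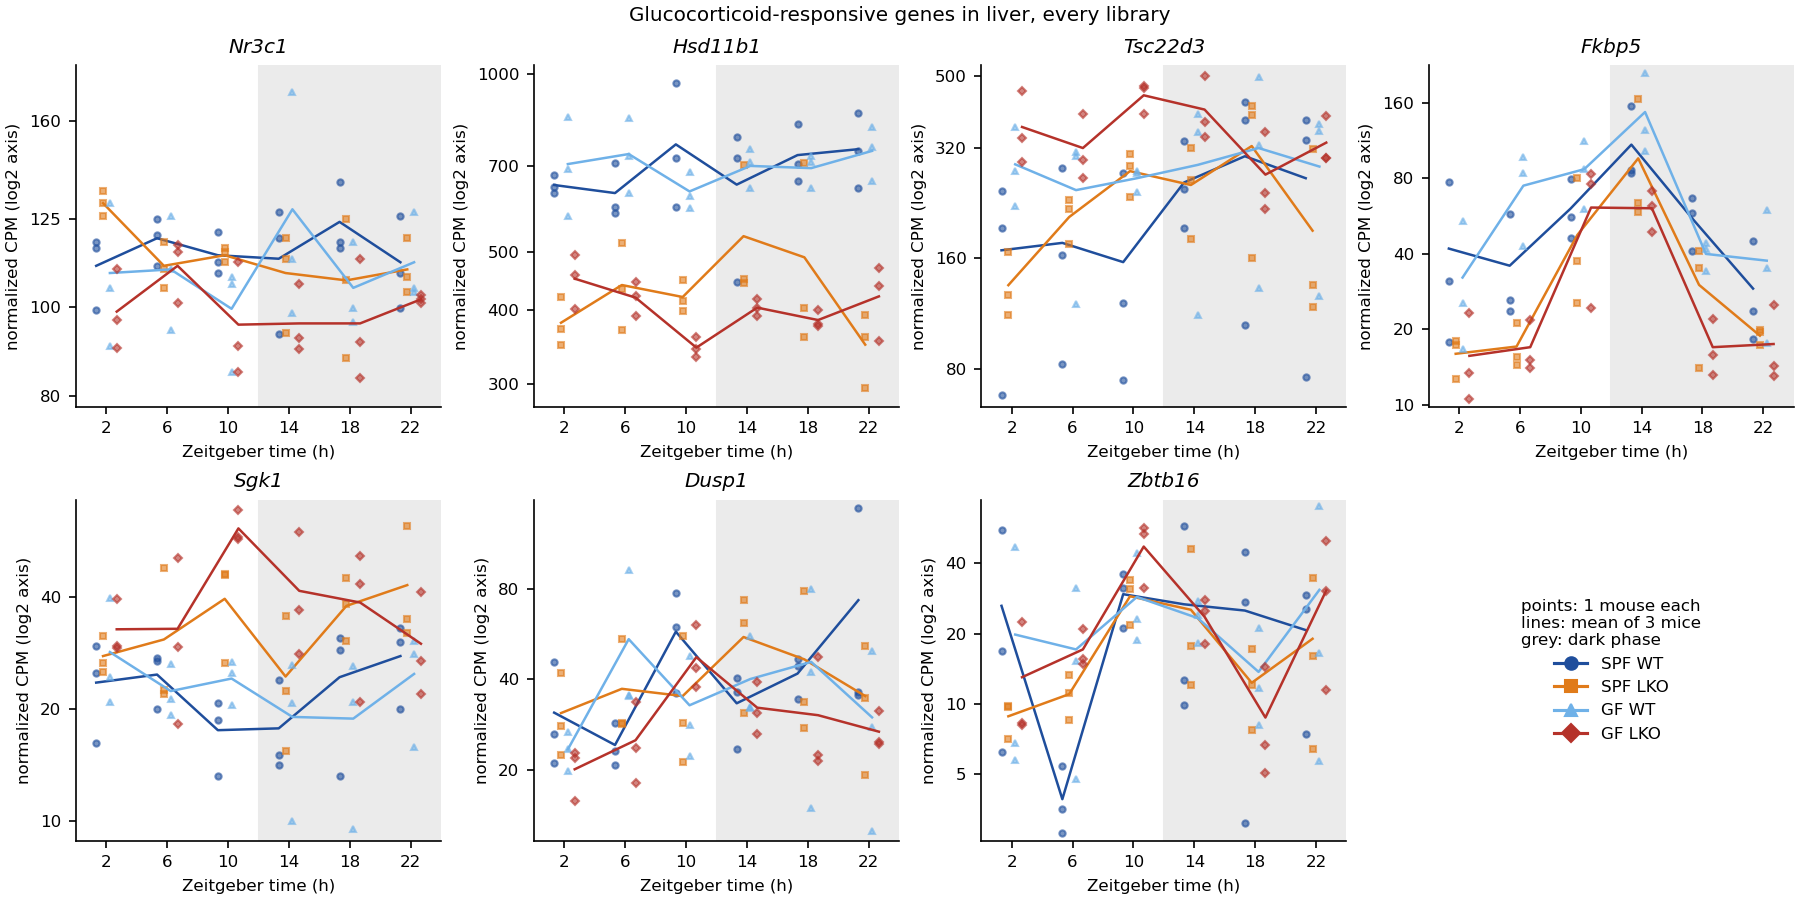
Level of each of the 7 genes (CPM, log2 axis) against ZT in hours, with 1 point per mouse, lines through the means of 3 mice, 1 colour per group and grey for the dark phase. Hsd11b1 means lie lower in LKO at every time, although single SPF livers overlap at ZT14 and ZT18, Fkbp5 peaks near the start of the dark phase in all 4 groups, and Zbtb16 and Tsc22d3 scatter widely among mice of the same time.

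Hsd11b1 (ENSMUSG00000016194, chr1:193221634-193264075, minus strand) was lower in LKO than in WT livers, and microbes made no difference that passed the test. In SPF mice it ranged from 446 to 966 CPM in WT (median 689) and from 295 to 708 in LKO (median 408). In GF mice it ranged from 575 to 846 in WT (median 699) and from 333 to 495 in LKO (median 400), so every GF LKO liver lay below every GF WT liver. The SPF ranges overlapped through 3 of the libraries that stand apart, the 2 labelled LKO at 701 and 708 CPM and the 1 labelled WT at 446. Without the 4 libraries the SPF ranges were 583 to 966 and 295 to 518 CPM and did not overlap. The genotype effect (LKO against WT, edgeR) was -0.67 on the log2 scale in SPF mice (SE 0.10, adjusted p = 1.46e-06) and -0.79 in GF mice (SE 0.06, adjusted p = 1.54e-14). It was -0.82 in SPF mice without the 4 libraries (adjusted p = 6.3e-12). The mean was lower in LKO at 6 of 6 times in both SPF and GF mice. Within single times, all 6 GF contrasts passed the test (-0.64 to -0.87), as did those of SPF mice at ZT2 (-0.78), ZT10 (-0.86) and ZT22 (-1.10). The SPF differences at ZT6 (-0.52, adjusted p = 0.0534), ZT14 (-0.30, 0.62) and ZT18 (-0.57, 0.34) did not pass with all libraries. Without the 4 libraries they were -0.52 (adjusted p = 0.028), -0.75 (0.00139) and -0.92 (0.000537). The microbial effect (GF against SPF) was -0.01 in WT (95% interval -0.15 to 0.13, adjusted p = 0.95) and -0.11 in LKO (-0.28 to 0.06, adjusted p = 0.325).

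Sgk1 (ENSMUSG00000019970, chr10:21882184-21999903, plus strand) moved in the opposite direction and was higher in LKO livers. It ranged from 13.2 to 32.9 CPM in SPF WT (median 22.3), 15.4 to 62.1 in SPF LKO (median 31.7), 9.48 to 39.8 in GF WT (median 22.7) and 18.2 to 68.3 in GF LKO (median 38.1). The ranges overlapped in SPF and in GF mice, but the highest levels of either housing were those of LKO livers. The genotype effect was 0.59 in SPF (SE 0.15, adjusted p = 0.00369) and 0.79 in GF mice (SE 0.17, adjusted p = 0.000274), and the mean was higher in LKO at 6 of 6 times in each. ZT10 was the time at which the difference passed the test by itself. There Sgk1 stood at 18.6, 20.7 and 13.2 CPM in SPF WT and at 26.5, 45.8 and 46.2 in SPF LKO. In GF mice at ZT10 it stood at 20.5, 26.7 and 25 CPM in WT and at 68.3, 58 and 57.1 in LKO. Neither pair of ranges overlapped at ZT10, with log2 differences of 1.18 (adjusted p = 0.00155) and 1.35 (adjusted p = 0.00037). The microbial effect in WT was -0.00 (95% interval -0.30 to 0.30) and in LKO 0.22 (-0.12 to 0.56), and neither passed the test (adjusted p = 0.993 and 0.327).

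Fkbp5 (ENSMUSG00000024222, chr17:28399094-28517527, minus strand) was lower in LKO livers of germ-free mice than in their WT livers and had the strongest daily course of the 7. It ranged from 16.7 to 211 CPM in GF WT (median 57.2) and from 10.6 to 83.5 in GF LKO (median 21.9), and from 17.8 to 155 in SPF WT (median 51.1) and 12.7 to 165 in SPF LKO (median 20.5). In both housings the ranges of WT and LKO overlapped over the whole day and also within some single times, while the means were lower in LKO at 6 of 6 times. The genotype effect was -1.14 in GF mice (SE 0.32, adjusted p = 0.00539). In SPF mice it was -0.56 (SE 0.32, 95% interval -1.20 to 0.08) and did not pass (adjusted p = 0.211). The highest value of SPF LKO mice, 165 CPM, came from the library labelled SPF LKO ZT14 replicate 2. Without that library the SPF effect was -0.88 (adjusted p = 0.0158), and without all 4 it was -0.87 (adjusted p = 0.022). With ZT as a covariate and all libraries it was -0.74 (adjusted p = 0.00477). Among single times the largest GF difference was that at ZT6, where the GF WT livers held 43.2, 97.2 and 84.1 CPM and the GF LKO livers 14.0, 21.8 and 15.1, a difference of -2.14 (adjusted p = 0.00184). The WT library at 84.1 CPM is the one labelled GF WT ZT6 replicate 3, and the ranges at ZT6 did not overlap with or without it. The GF difference of -1.21 at ZT18 (adjusted p = 0.0392) no longer passed when any of 6 libraries was left out, and that of -1.26 at ZT14 (adjusted p = 0.0816) passed without the 4 libraries (adjusted p = 0.00647).

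Nr3c1 (ENSMUSG00000024431, chr18:39410545-39519421, minus strand), the receptor itself, was the steadiest of the 7. It ranged from 93.5 to 137 CPM in SPF WT (median 117), 87.9 to 134 in SPF LKO (median 114), 85 to 172 in GF WT (median 106) and 83.7 to 117 in GF LKO (median 101). The 4 ranges shared the span from 93.5 to 117 CPM, and the highest GF LKO liver stood at the SPF WT median. It was lower in GF than in SPF mice among LKO livers, by a small amount (-0.19, SE 0.05, adjusted p = 0.00466), with a lower mean at 5 of 6 times. In WT the microbial effect was -0.08 (95% interval -0.21 to 0.05, adjusted p = 0.332). The genotype effect was -0.02 in SPF mice (95% interval -0.12 to 0.08, adjusted p = 0.79) and -0.14 in GF mice (adjusted p = 0.118).

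Tsc22d3 (ENSMUSG00000031431, chrX:140539528-140600659, minus strand) was higher in GF than in SPF mice among LKO livers. It ranged from 112 to 416 CPM in SPF LKO (median 224) and from 218 to 501 in GF LKO (median 347), and from 67.8 to 426 in SPF WT (median 218) and 112 to 498 in GF WT (median 290). The ranges overlapped over the whole day. At 4 of 6 times all 3 GF LKO livers lay above all 3 SPF LKO livers, a count for which the share of all genes was not computed. The microbial effect in LKO was 0.62 (SE 0.15, adjusted p = 0.00174). In WT it was 0.32 (SE 0.24, 95% interval -0.15 to 0.80) and did not pass (adjusted p = 0.301), although the mean was higher in GF mice at 6 of 6 times. With a block for each replicate number and ZT the WT value was 0.44 and passed (adjusted p = 0.0264). At ZT2 the SPF LKO livers held 127, 112 and 166 CPM and the GF LKO livers 457, 293 and 340, with no overlap and a difference of 1.43 (adjusted p = 0.0248). The genotype effect was 0.06 in SPF (95% interval -0.41 to 0.53, adjusted p = 0.879) and 0.35 in GF mice (0.03 to 0.66, adjusted p = 0.0921).

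Dusp1 (ENSMUSG00000024190, chr17:26505590-26562128, minus strand) and Zbtb16 (ENSMUSG00000066687, chr9:48654297-48836222, minus strand) passed the test in none of the 4 pooled comparisons. Dusp1 medians were 36.1 CPM in SPF WT, 32.4 in SPF LKO, 32.3 in GF WT and 25.6 in GF LKO, over a range of 12.5 to 148 in all libraries. Its largest pooled difference was between GF and SPF mice among LKO livers (-0.40, 95% interval -0.77 to -0.03, adjusted p = 0.0814). That value was -0.26 without the libraries that stand apart (adjusted p = 0.252). Zbtb16 medians were 19, 12.7, 18.5 and 19.5 CPM in the same order, over a range of 2.78 to 70.2. At ZT6 it stood at 5.4, 3.53 and 2.78 CPM in SPF WT and at 15.2, 31.4 and 4.75 in GF WT. Those ranges overlapped, and the difference of 2.13 passed the test with all libraries (adjusted p = 0.0447) but not in 9 of 12 fits that each left out 1 library of that time.

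**Figure D2:**
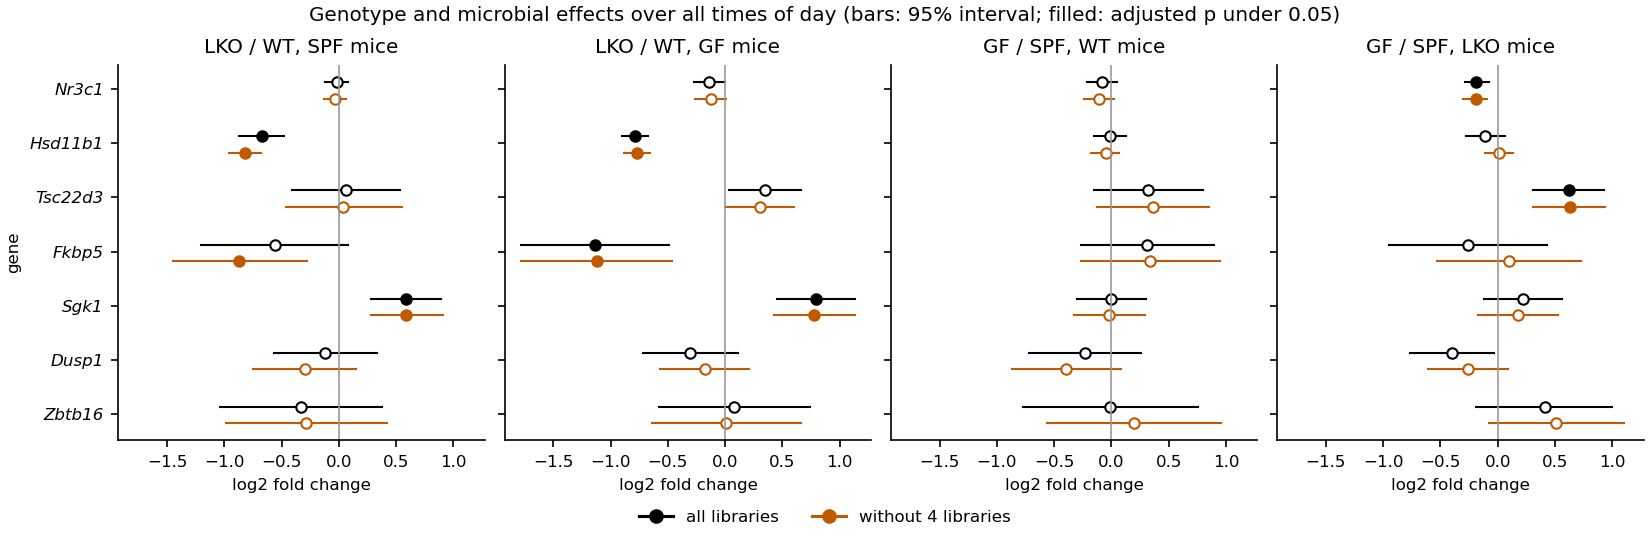
Log2 differences with 95% intervals for the 7 genes in the 4 pooled comparisons, with all libraries and without the 4 that stand apart; filled symbols passed an adjusted p of 0.05. Hsd11b1 lies left of 0 and Sgk1 right of 0 in both genotype panels. In the fits drawn, Fkbp5 in SPF mice passes without the 4 libraries and not with all libraries.

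Counted together, 2 of the 7 genes differed between LKO and WT in SPF mice, where 23.1% of 13159 genes tested did, and 3 of 7 in GF mice, where 30.8% did. Between GF and SPF mice 0 of 7 passed in WT (31.8% of genes; 0 at an unadjusted p under 0.05, and 0 by DESeq2) and 2 of 7 in LKO (36.4%). The genotype shares lie above those of all genes and the microbial shares below. With only 7 genes the shares are coarse, and whether they differ from those of all genes was not tested. The genotype effect itself did not differ between GF and SPF mice for any of the 7 (0 called by edgeR and by DESeq2, 0 at an unadjusted p under 0.05, adjusted p of at least 0.916; 0.438% of genes called). The differences of the effects were -0.12 for Hsd11b1 (95% interval -0.34 to 0.10), 0.20 for Sgk1 (-0.26 to 0.66), -0.59 for Fkbp5 (-1.5 to 0.33) and 0.28 for Tsc22d3 (-0.30 to 0.85). Over the 6 times taken singly, 4 of 42 tests of these genes passed for genotype in SPF mice (4.92% of all genes' tests) and 9 of 42 in GF mice (7.99%). Hsd11b1 alone passed at all 6 times in GF mice and at ZT2, ZT10 and ZT22 in SPF mice. Most of these genotype calls are thus 1 gene counted again at each time, and the 42 tests are not independent. For microbes 1 of 42 passed in WT (2.89%) and 1 of 42 in LKO (2.71%). The 2 genotype comparisons and the 2 microbial comparisons share groups with each other, so their values are not independent of one another.

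The daily course was tested as a 24 h cosine in each group of 18 livers. Fkbp5 was rhythmic in every group, with a fitted log2 amplitude by edgeR of 0.74 in SPF WT (adjusted p = 0.0297), 1.25 in SPF LKO (0.00102), 1.01 in GF WT (0.00246) and 1.10 in GF LKO (0.000444). On log2 CPM the fitted peak stood 3.2-fold above the trough in SPF WT, 4.76-fold in SPF LKO, 4.3-fold in GF WT and 4.37-fold in GF LKO. Peaks fell around the change from light to dark, at ZT 13.5 ± 1.0 h (SE) in SPF WT, 13.5 ± 0.7 in SPF LKO, 11.6 ± 0.8 in GF WT and 12.2 ± 0.8 in GF LKO. In SPF WT mice the values were 77.1, 17.8 and 31.2 CPM at ZT2 and 155, 86.7 and 84.4 CPM at ZT14. In GF LKO mice they were 23.2, 10.6 and 13.4 CPM at ZT2 and 49, 62 and 71.4 at ZT14. Every ZT14 liver lay above every ZT2 liver in both groups. Without its 2 libraries the SPF LKO amplitude on log2 CPM was 0.92 ± 0.20, against 1.13 ± 0.22 with them. The SPF WT call was lost when any of 5 libraries was left out, and with ZT as a factor (adjusted p = 0.0793).

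The 24 h cosine passed for few of the other genes. Dusp1 was called in GF LKO mice (amplitude 0.45, peak at ZT 12.5, adjusted p = 0.0256), and that call was lost without the ZT10 replicate 2 or the ZT2 replicate 3 library of the group. Tsc22d3 in SPF LKO mice had an amplitude of 0.50 (adjusted p = 0.0576) that passed without the 2 libraries against their labels (0.56, adjusted p = 0.0466). Nr3c1 amplitudes lay between 0.02 and 0.10 and those of Hsd11b1 between 0.07 and 0.23, and none passed (adjusted p from 0.07 to 0.932). Sgk1 had amplitudes of 0.12 to 0.41 and Zbtb16 of 0.03 to 0.62, none of which passed either. With ZT as a factor in place of the cosine, Zbtb16 was called in GF LKO mice (adjusted p = 0.00741, against 0.357 by the cosine), where it stood at 31.3, 53.4 and 56.9 CPM at ZT10 and 5.07, 6.68 and 14.4 at ZT18. Its GF WT amplitude was 0.03 by edgeR and 0.41 ± 0.38 on log2 CPM. Called genes thus numbered 1 of 7 in SPF WT, where 16.9% of all genes were called, 1 of 7 in SPF LKO (24.5%), 1 of 7 in GF WT (29.4%) and 2 of 7 in GF LKO (38.6%).

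**Figure D3:**
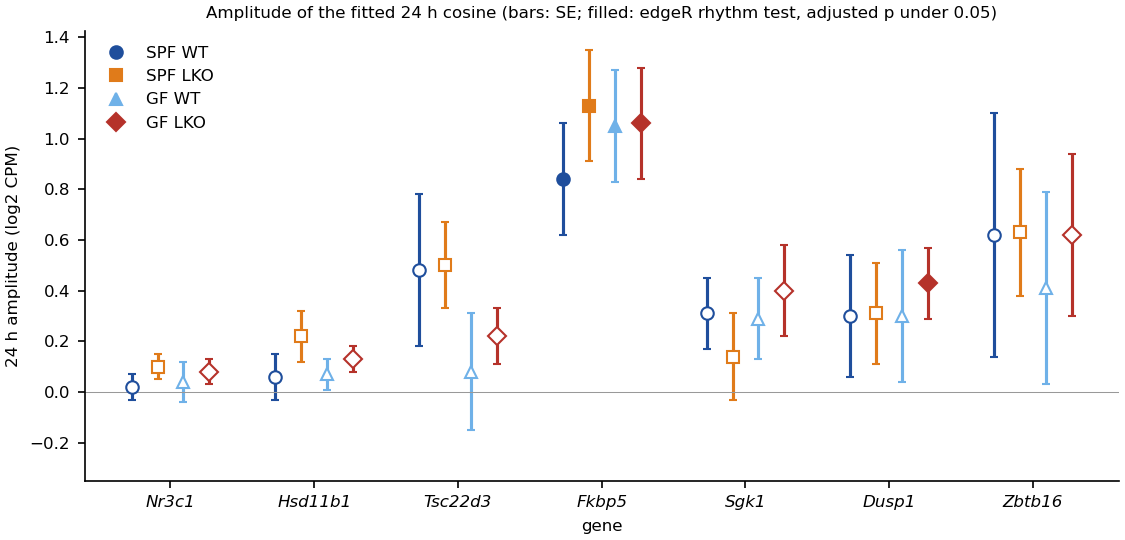
Amplitude of the 24 h cosine fitted to log2 CPM (± SE, 18 livers) for each gene and group; filled symbols were called rhythmic by edgeR. Fkbp5 amplitudes lie between 0.84 and 1.13 in all 4 groups, while Nr3c1 stays at or below 0.10.

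No rhythm of the 7 differed between groups at an adjusted p under 0.05 by edgeR (0 of 7 in each of 4 comparisons). The background was 1.12% of genes for genotype in SPF mice, 6.38% for genotype in GF mice, 0.047% for microbes in WT and 5.34% for microbes in LKO. At an unadjusted p under 0.05 there were 0, 1, 0 and 2 of 7, and by DESeq2 there was 1 call, Hsd11b1 for microbes in LKO (adjusted p = 0.0429, against 0.0717 by edgeR). Fkbp5 differed by a vector amplitude of 0.52 between genotypes in SPF mice (adjusted p = 0.57) and 0.16 in GF mice (adjusted p = 0.941). Of 13 clock genes, 9 changed their rhythm with genotype in SPF mice and 12 in GF mice. That list holds the deleted gene Arntl and other parts of the same clock. Its counts do not show how small a change could be found in the 7 genes.

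Among livers taken at the same time from the same group, some of these genes deviated together or in opposite directions. For each library the deviation of log2 CPM from the mean of its 3 livers was computed. Over 72 libraries 28 relations were tested by permutation within those sets of 3 (100000 draws, two-sided), and 9 passed after adjustment. The share of pairs among all genes that would pass was not computed, so the count cannot be called particular to these genes. Tsc22d3 and Dusp1 deviated in opposite directions (r = -0.67, permutation p = 1e-05, the smallest the draws can give, adjusted p = 0.00028; rho = -0.62, p = 1e-05). Without the 2 libraries farthest from the median of Tsc22d3, r was -0.64, and within groups it was -0.74 in SPF WT, -0.78 in SPF LKO, -0.72 in GF WT and -0.13 in GF LKO. Tsc22d3 and Sgk1 deviated together (r = 0.62, permutation p = 2e-05, adjusted p = 0.00028; rho = 0.60, p = 3e-05; 0.59 without 2 libraries). Within groups that r was 0.87, 0.47, 0.82 and 0.18 in the same order. Zbtb16 moved with Tsc22d3 (r = 0.57, permutation p = 0.0001, adjusted p = 0.00084; rho = 0.53, p = 0.00017) and with Fkbp5 (r = 0.56, permutation p = 0.00012, adjusted p = 0.00084; rho = 0.57, p = 0.00012). Without 2 libraries these were 0.50 and 0.52. Within groups the first was 0.65, 0.45, 0.49 and 0.70 and the second 0.56, 0.23, 0.73 and 0.71. The relations of Tsc22d3 with Dusp1 and with Sgk1 were weakest in GF LKO mice, and their difference between groups was not tested.

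The receptor transcript deviated against 3 of its 5 targets, while its relations with Fkbp5 (r = -0.24, permutation p = 0.119, adjusted p = 0.222; rho = -0.31, p = 0.0356) and Dusp1 (r = 0.24, permutation p = 0.0958, adjusted p = 0.192; rho = 0.20, p = 0.179) did not pass. Nr3c1 was low in livers where Tsc22d3 was high (r = -0.52, permutation p = 0.00026, adjusted p = 0.00146; rho = -0.52, p = 0.00019), with -0.46 without 2 libraries and -0.48 to -0.68 within groups. Its relation with Sgk1 was weaker (r = -0.41, permutation p = 0.00561, adjusted p = 0.0196; rho = -0.37, p = 0.00875; -0.35 without 2 libraries; -0.28 to -0.49 within groups). That with Zbtb16 (r = -0.43, permutation p = 0.0017, adjusted p = 0.0068; rho = -0.48, p = 0.00089; -0.50 without 2 libraries; -0.20 to -0.85 within groups) did not pass without the 4 libraries that stand apart (r = -0.30, adjusted p = 0.126). Dusp1 rose with the mean of 15 immediate early genes, the transcripts that respond first to a stimulus (r = 0.42, permutation p = 0.00114, adjusted p = 0.00532; rho = 0.44, p = 0.00106; 0.39 without 2 libraries; 0.18 to 0.60 within groups). Sgk1 and Dusp1 had r = -0.36 (permutation p = 0.0131, adjusted p = 0.0406; rho = -0.36, p = 0.0106; -0.30 without 2 libraries; -0.54 to 0.21 within groups), which did not pass without the 4 libraries (adjusted p = 0.0801). Tsc22d3 and Fkbp5 fell just short of the threshold (r = 0.34, permutation p = 0.0192, adjusted p = 0.0538; rho = 0.36, p = 0.00836, adjusted p = 0.0272; 0.30 without 2 libraries), and passed without the 4 libraries (r = 0.41, adjusted p = 0.0166).

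Some of this variation moved with replicate numbers, which the permutations did not keep apart. Livers numbered 3 stood below the mean of their set in Tsc22d3 by 0.70 in SPF WT (1 of 6 livers above the mean) and by 0.77 in GF WT (0 of 6 above), and the GF WT livers numbered 3 stood above it in Dusp1 by 0.69 (6 of 6). Livers numbered 1 stood above the mean in Tsc22d3 by 0.63 in SPF WT and 0.48 in GF WT, and in Dusp1 by 0.51 in SPF LKO (5 of 6). Per1, a clock gene that is also a receptor target, deviated by -0.70 in SPF WT and -0.89 in GF WT livers numbered 3. In livers numbered 1 it deviated by 0.70 in SPF WT and 0.60 in GF WT. What the numbers stand for is not given in the labels. With the mean of each number within each group removed, an alternative chosen after seeing the data, r was -0.55 for Tsc22d3 with Dusp1, 0.50 for Tsc22d3 with Sgk1, 0.57 for Fkbp5 with Zbtb16 and -0.34 for Nr3c1 with Tsc22d3, while Sgk1 with Dusp1 was -0.07.

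**Figure D4:**
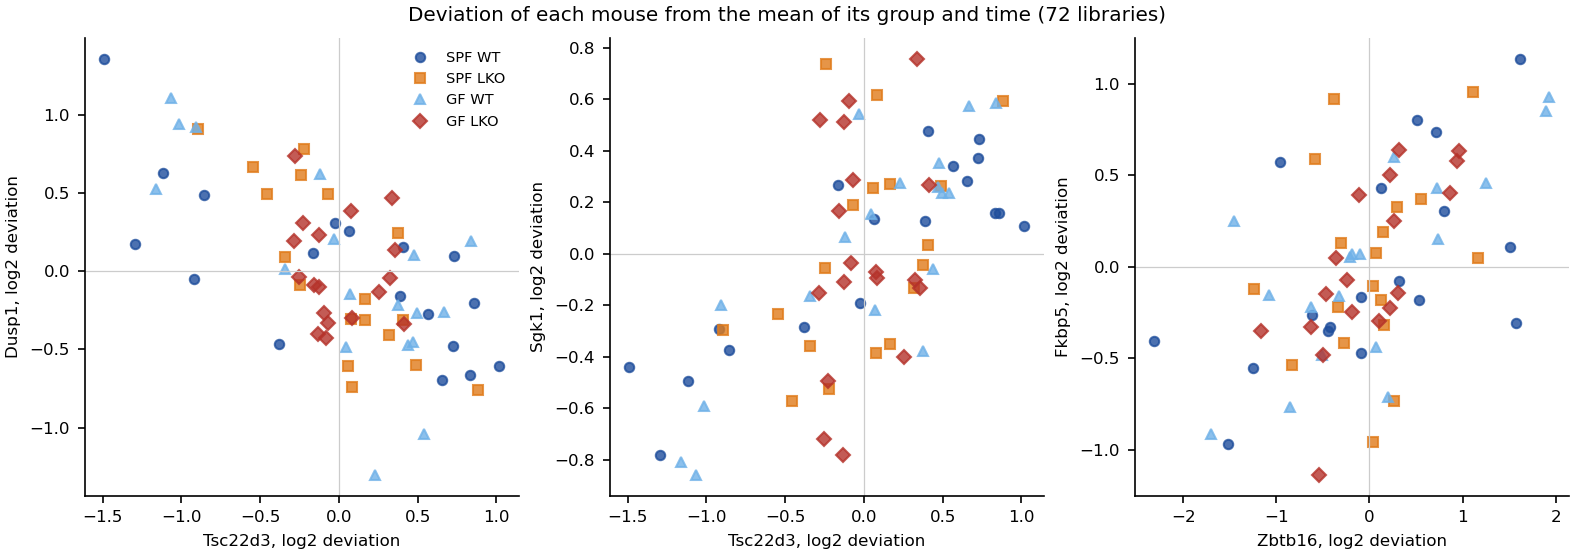
Deviation of log2 CPM from the mean of the 3 livers of the same group and time, for Tsc22d3 against Dusp1, Tsc22d3 against Sgk1 and Zbtb16 against Fkbp5, with 1 point for each of 72 mice and 1 colour per group. Over all points the first panel descends (r = -0.67) and the others ascend (r = 0.62 and 0.56). Within groups the weakest r was -0.13 in the first panel and 0.18 in the second, both in GF LKO. In the third panel it was 0.23, in SPF LKO.

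Around the 7 genes, 3 lists of the pathway were counted, and none of them is tested as a set. Of 19 receptor chaperones and co-regulators, 0 were higher and 2 lower in LKO than in WT in SPF mice, and 1 higher and 2 lower in GF mice, where 23.1% and 30.8% of all genes were called. Median log2 differences were -0.08 and -0.09, against -0.01 and 0.01 over all genes. Nr3c2, the mineralocorticoid receptor that also binds corticosterone, was lower in both (-0.38 and -0.48), with the coactivator Crebbp (-0.16) in SPF and the co-chaperone Bag1 (-0.16) against the coactivator Ncoa1 (0.19) in GF mice. For microbes, where 31.8% of all genes were called in WT and 36.4% in LKO, 0 were higher and 3 lower in WT (Ep300 -0.28, Ncoa3 -0.22, Ncor1 -0.15), and 1 higher and 4 lower in LKO (Fkbp4 0.31, Ep300 -0.30, Ncoa3 -0.26 and Nr3c2 -0.25 among them).

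Of 10 genes of steroid supply, carriage and clearance tested, from a list of 11, 0 were higher and 5 lower in LKO in SPF mice (median -0.24; 23.1% of all genes called) and 1 higher and 7 lower in GF mice (median -0.75; 30.8%). The lowest were the steroid export pumps Abcb1a (-1.54 in SPF, -1.94 in GF) and Abcb1b (-1.19 and -1.28), Serpina6, which encodes the corticosteroid carrier of plasma (-1.02 and -1.56), and the steroid hydroxylase gene Cyp3a11 (-2.38 in GF), and Akr1c6 was higher in GF mice (0.28). Hsd11b1 and Serpina6 were thus both lower in LKO livers of either housing. Between GF and SPF mice 3 were higher and 1 lower in WT (31.8% of all genes called), namely Serpina6 (0.36), Akr1d1 (0.34) and Srd5a1 (0.32), and Cyp3a11 (-2.42). In LKO 2 were higher and 2 lower (36.4%), namely Srd5a1 (0.35) and Akr1c6 (0.29), and Cyp3a11 (-5.01) and Abcb1a (-0.90). Cyp3a11 was the 1 gene of the list whose genotype effect differed between GF and SPF mice (-2.61, adjusted p = 1.77e-07).

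Of 33 other targets of the receptor, 32 were tested in SPF mice, where 3 were higher and 8 lower in LKO (median -0.27; 23.1% of all genes called), and 33 in GF mice, where 5 were higher and 7 lower (median -0.22; 30.8%). Like Sgk1 and Fkbp5 among the 7 genes, they did not share 1 direction. The cell cycle inhibitor gene Cdkn1a (1.5 in SPF, 2.26 in GF), Pdk4, which restrains pyruvate oxidation (1.56 and 0.96), and the insulin receptor substrate Irs2 (1.04 and 1.01) were higher in LKO. Angptl4, an inhibitor of lipoprotein lipase (-0.86 and -0.75), Arrdc2 (-0.60 and -0.56), Zfp36 (-0.58 and -0.52) and Foxo3 (-0.52 and -0.56) were lower in both housings. In GF against SPF mice 3 were higher and 2 lower in WT (Mt1 1.30, Irs2 0.73, Slc10a1 0.36, Lcn2 -1.26, Mertk -0.34), and 9 higher and 2 lower in LKO (Mt1 2.18, Igfbp1 1.51 and Cdkn1a 0.77 leading, Mertk -0.38, Glul -0.17). Medians were 0.10 and 0.24, against -0.02 over all genes, of which 31.8% and 36.4% were called, and Tsc22d3 at 0.62 in LKO lay between Cdkn1a and the median.

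**Figure D5:**
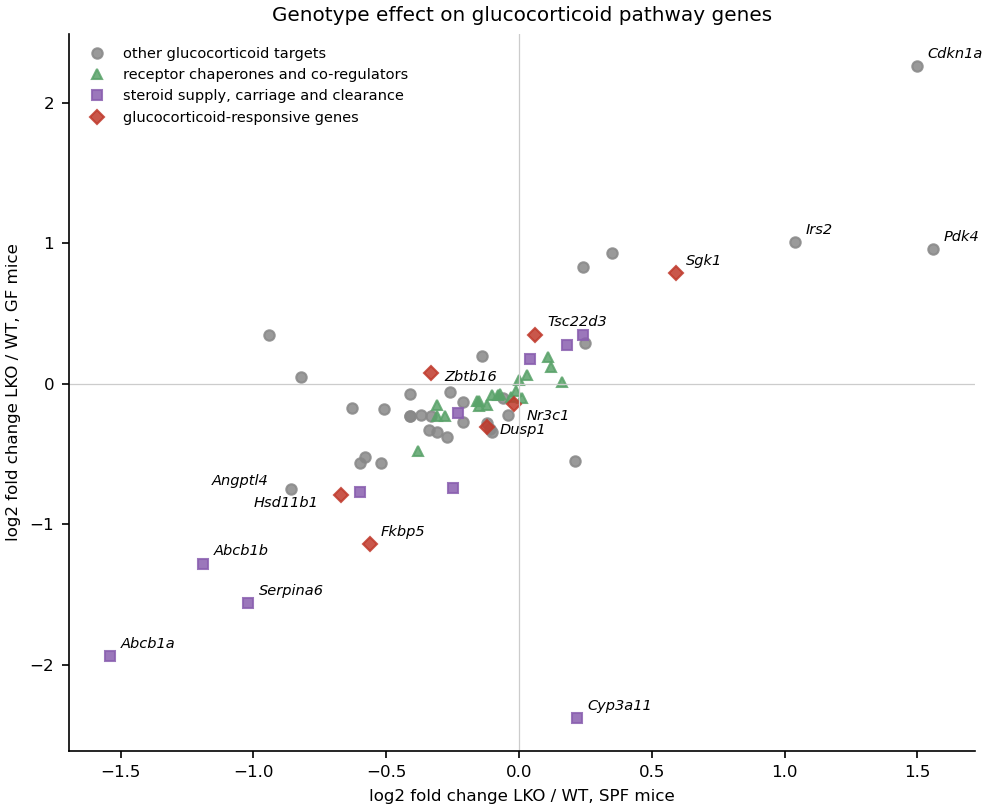
Genotype effect (log2, LKO against WT) in SPF mice on the horizontal axis and in GF mice on the vertical axis, for the 7 genes and the 3 pathway lists. Hsd11b1, Serpina6 and Abcb1a lie in the lower left and Sgk1, Cdkn1a, Irs2 and Pdk4 in the upper right.

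The daily course of the lists was compared with that of Fkbp5. Of the chaperone list 4 of 19 genes were called rhythmic in SPF WT, 10 in SPF LKO, 9 in GF WT and 11 in GF LKO, beside 16.9%, 24.5%, 29.4% and 38.6% of all genes. Hsp90aa1, a chaperone of the receptor, had amplitudes on log2 CPM of 0.75 ± 0.17, 0.66 ± 0.10, 0.47 ± 0.13 and 0.53 ± 0.11 (SE) in that order, peaking between ZT 16.1 and 19.2. Fkbp4, whose protein takes the place of that of Fkbp5 in the receptor complex when hormone binds, had amplitudes of 0.46, 0.40, 0.41 and 0.48 with peaks between ZT 17.3 and 20.4, later than the Fkbp5 peak in each group. Nr3c2 had 0.48, 0.28, 0.38 and 0.33 and peaked by day, between ZT 3.2 and 7.8. These 3 were called in all 4 groups, as Fkbp5 was.

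Of the supply list 3 of 10 genes were called rhythmic in SPF WT, 2 of 9 in SPF LKO, 7 of 10 in GF WT and 5 of 8 in GF LKO, beside the same shares of all genes (16.9%, 24.5%, 29.4% and 38.6%). Serpina6 had amplitudes of 0.40 ± 0.11 (SE) in SPF WT, 0.28 ± 0.18 in SPF LKO, 0.55 ± 0.08 in GF WT and 0.11 ± 0.07 in GF LKO. It was called in both WT groups and in neither LKO group. Such calls are made within each group and do not compare the groups. Akr1d1 had 0.43, 0.18, 0.39 and 0.33 and Srd5a1 0.27, 0.12, 0.16 and 0.27, in the same order. Of the other targets 7, 14, 12 and 16 of 30 were called, beside the same shares. Cdkn1a had 2.33, 0.67, 2.05 and 0.83, Pdk4 1.44, 1.05, 1.31 and 0.52, and Lcn2 1.10, 0.49, 0.38 and 0.05. Beside these, Fkbp5 stood at 0.84, 1.13, 1.05 and 1.06.

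Some cell markers differed between genotypes beside these genes. The summed level of 6 hepatocyte markers had a median of 104000 CPM in SPF WT (78400 to 129000) and 56100 in SPF LKO (41500 to 123000), and of 131000 in GF WT (110000 to 167000) and 58200 in GF LKO (49100 to 70500). This came from Alb (-0.98 in SPF, -1.70 in GF), while 0 of the other 5 markers passed in SPF mice and 2 in GF mice (Ttr -0.21, Serpina1c 0.30). The part of the lower Alb transcript in the values of Hsd11b1 was not tested. Of 6 Kupffer cell and macrophage markers 3 were lower in SPF LKO (Timd4 -0.33, Vsig4 -0.26, Clec4f -0.20; sums of 146 to 338 CPM in WT and 134 to 204 in LKO) and 2 in GF LKO (Timd4 -0.32, Csf1r -0.24; 122 to 219 and 92.6 to 197). In GF against SPF mice, 5 of 6 hepatocyte markers were higher in WT, and 3 higher and 1 lower in LKO, the latter beside the higher Tsc22d3. One Kupffer marker, Csf1r, was lower in GF LKO mice (-0.33). Endothelial sums ran from 132 to 226 CPM, stellate sums from 219 to 454, cholangiocyte sums from 3.14 to 19.4 and lymphocyte sums from 0.857 to 10.7 in all libraries, with 3 of 7 lymphocyte markers below 1 CPM throughout. Between genotypes 1 of 6 endothelial, 1 of 6 stellate and 1 of 4 cholangiocyte markers passed in each housing and 0 lymphocyte markers did. Of 15 immediate early genes, 14 were tested, and 2, 1, 2 and 3 passed for genotype in SPF and GF mice and microbes in WT and LKO. Beside these counts and those of the markers, 23.1%, 30.8%, 31.8% and 36.4% of all genes passed in the same 4 comparisons.

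The genes whose course over the 24 means of group and time was most like that of each gene were found among 10710 genes, as a description. For Hsd11b1 they were Ces1b (r = 0.973) and Rcan2 (0.966), for Fkbp5 St3gal5 (0.926) and Bnip3 (0.917), and for Tsc22d3 Hnrnpa2b1 (0.848) and Ddit4 (0.846), itself a receptor target. Likeness was lower for Sgk1 (Cnp and Zfp622, 0.823 each), Nr3c1 (Strn 0.822, Zdhhc17 0.771), Zbtb16 (Rad17 0.79, Mphosph8 0.77) and Dusp1 (Tcim 0.785, Dcun1d3 0.759). None of the 7 genes was among the 2 nearest to another of them.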

How the data were processed

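Liver RNA of 72 mice was analysed as 1 library each. The authors deposited whole counts per gene, without normalization, from single-end reads of a stranded mRNA kit aligned with STAR 2.6.1b to mm10 and counted over exons with featureCounts 2.0.0 (tool names and versions per the submitters' processing notes and the file headers). Counting did not use the strand and left out multimapping reads, so overlapping and antisense genes cannot be told apart. Libraries held 17369927 to 22076113 counts, and 0 value columns were left unused. Groups, ZT and replicate numbers came from the labels, which do not describe replicates further than as separate mice.

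Counts were tested with edgeR 4.0.16 (R 4.3.3; TMM scaling, filterByExpr, quasi-likelihood F test, Benjamini-Hochberg adjustment over all genes tested, threshold 0.05). Pairs of groups were fitted on 36 libraries with ZT pooled, the difference of genotype effects on 72, single ZT on 12, and 24 h cosines on the 18 libraries of a group or, for differences, on 36. DESeq2 1.42.0, limma 3.58.1, RLE scaling, no filter, ZT as covariate or factor, the replicate block, and leaving out libraries were alternatives. Cosines fitted to log2 CPM (prior count 2) gave amplitudes with SE. Scripts were tested on simulated counts. Python 3.11.15, scipy 1.17.1 and matplotlib 3.10.9 were used. The eJTK test of the study was not used here. P-values within a single ZT rest on the spread between mice. Those of pooled comparisons rest on the spread between mice and between times of day together, because ZT was not in the fit. Those of cosines also take in any daily course that the cosine leaves unfitted.

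The 7 genes were named in every comparison. From the lists of receptor chaperones, steroid supply and other targets, at most the 3 called genes with the largest rise and the 3 with the largest fall per pooled comparison were named, and for rhythm the 3 called with the largest amplitude in SPF WT. For likeness, the 2 genes with the highest Pearson r and a mean log2 CPM of at least 1 were named. Hepatocyte markers that passed for genotype and Kupffer cell markers that passed were named in addition. Calls of other markers, and of hepatocyte markers for microbes, were given as counts. The 7 genes and all lists were chosen with earlier results of these data known. Promoter windows came from RefSeq (GRCm38.p6), and gene coordinates from the annotation of GRCm38.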

Additional observations from a re-analysis of the deposited data

How the results depend on the processing

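The direction of every called value named for the 7 genes held under each alternative that was run. In pooled comparisons the calls for Hsd11b1, Sgk1, Nr3c1 and Tsc22d3, and for Fkbp5 in GF mice, passed with each single library left out. Calls gained included Fkbp5 in SPF mice (-0.74 to -0.91 with ZT as a covariate, the replicate block or libraries left out) and Dusp1 for microbes in LKO. The Dusp1 value was -0.43 with ZT as a covariate (adjusted p = 0.0419) and -0.37 with the replicate block (adjusted p = 0.0495). With the replicate block the Fkbp5 difference in GF mice at ZT18 did not pass (-1.18, adjusted p = 0.0527). Within single ZT, where 3 livers stand against 3, no filter on low counts raised the genes' calls most, to 23 for genotype in GF mice, 21 in SPF mice, 19 for microbes in LKO and 13 in WT, and calls over all genes to 9895, 7657, 6999 and 6837. DESeq2 gave 2 and 2 calls of the 7 genes for microbes in LKO and WT (5110 and 5064 of all genes), and 1 fit of 72 libraries gave 0 and 0 (4247 and 4402). Without the 4 libraries that stand apart there were 8 for genotype in SPF mice and 2 for microbes in WT.

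For rhythm, ZT as a factor called 0 of the 7 in SPF WT and 990, 787 and 1729 of all genes in SPF WT, SPF LKO and GF WT. In SPF LKO 2 of the 7 were called by DESeq2, by limma and without 2 or 4 libraries, and 3 without the filter, which also called 4 in GF LKO. For differences of rhythm in all genes, ZT as a factor gave 44 and 495 for genotype in SPF and GF mice and 1 and 7 for microbes in WT and LKO, and DESeq2 gave 294 for genotype in SPF, 36 for microbes in WT and 1127 in LKO. No filter gave 246 for genotype in SPF and 62 for microbes in WT. Without 2 libraries there were 261 for genotype in SPF and 399 for microbes in LKO, and without 4 there were 364, 399 and, for microbes in WT, 10. Of the 7, 1 was called without the filter for genotype in GF mice and for microbes in LKO, and 1 by DESeq2 for the latter. The difference of genotype effects was called for 35 genes without 2 libraries. Spearman correlation kept 7 of 14 most alike genes. The causes were not tested.

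Leaving out 1 library at a time gave 0 to 2 calls of the 7 within a ZT for microbes in WT (1435 to 2772 genes) and 0 to 2 in LKO (1323 to 2736), 0 to 1 rhythms in SPF WT, 1 to 2 in SPF LKO and 1 to 4 in GF LKO, and 0 to 1 differences of rhythm for microbes in LKO. Over all genes the differences of rhythm ran from 104 to 230 for genotype in SPF, 331 to 1183 for microbes in LKO and 1 to 10 in WT, and the differences of genotype effects from 38 to 69.

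Over genes whose log2 CPM averaged 1 or more, libraries of different groups with the same number and ZT did not deviate together: their deviations had a median r of -0.05 to 0.01 over the 4 pairs of groups, with 3 to 6 of 18 over 0.1, so the numbers were not taken to pair them. Within a group, same-numbered libraries of different ZT had a median r of -0.01 to 0.08, with 14 to 19 of 45 over 0.1. With the replicate block Tsc22d3 passed for microbes in WT (0.44, adjusted p = 0.0264; 1 of the 7), 2 of the 7 were rhythmic in SPF LKO, and 0 passed within a ZT for microbes in WT.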
